A study of Mus musculus with 12 samples.

Results

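The 9 genes described here are 7 CC chemokines (Ccl2, Ccl3, Ccl4, Ccl7, Ccl8, Ccl11 and Ccl12) and 2 of their receptors (Ccr1 and Ccr2), which together draw monocytes and related white cells out of the blood into tissue. They were chosen by name, as the rows of the count table whose Ensembl identifiers carry these mouse symbols. All 9 were found among 78298 genes in the table, and all 9 passed the filter on low counts that left 22190 genes for testing. RNA was sequenced from 12 mouse lung libraries, 3 in each of 4 groups: normal adjacent lung after VEH, normal adjacent lung after HDM, tumour after VEH and tumour after HDM. HDM is house dust mite, a common inhaled allergen, and the series describes the exposure as chronic. The labels call the tumours LLC and do not spell out VEH or LLC, which are used here as given. Strain, sex, age, genotype, dose and the length of exposure are not given in the sources used here. Tumour and adjacent lung were dissected under a microscope and snap-frozen, so every library is a mixture of cell types, and in such a mixture fewer cells of a type and less RNA per cell cannot be told apart.

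Chemokines are small secreted proteins that bind receptors on white cells and direct their movement. CCR2 is the receptor that classical monocytes need to leave the bone marrow and enter inflamed tissue, and CCL2, CCL7 and CCL12 are its best known ligands in the mouse. CCR1 binds CCL3 and CCL5, CCL4 is a close relative of CCL3, and CCL11, also called eotaxin, draws eosinophils through CCR3 in allergic airways. In tumours, recruited monocytes become macrophages, which makes this set of genes a usual readout of myeloid recruitment.

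The 7 chemokine genes lie in 2 groups on chromosome 11 (GRCm39). Ccl2 (chr11:81926397-81928279), Ccl7 (chr11:81936532-81938351), Ccl11 (chr11:81948618-81953781), Ccl12 (chr11:81992645-81994466) and Ccl8 (chr11:82006007-82007625) follow each other on the plus strand within 81.2 kb. Ccl3 (chr11:83538670-83540191, minus strand) and Ccl4 (chr11:83553383-83555509, plus strand) span 16.8 kb farther along. Ccr1 (chr9:123762161-123768734, minus strand) and Ccr2 (chr9:123901982-123913594, plus strand) span 151.4 kb on chromosome 9. Ccl3 overlaps the gene Gm53692 on the opposite strand, which held 520 counts over the 12 libraries against 952 for Ccl3. Whether the counting used the strand is not stated, so the Ccl3 values are uncertain.

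The 250 bases before the start sites of 4 neighbours in the larger group are printed because 3 of these genes (Ccl2, Ccl7 and Ccl12) were higher in tumours, whereas Ccl11, which lies between Ccl7 and Ccl12, was not called in any comparison. They were read from the GRCm39 genome, 5′ to 3′ on the plus strand, at chr11:81926147-81926396 (Ccl2), chr11:81936282-81936531 (Ccl7), chr11:81992395-81992644 (Ccl12) and chr11:81948368-81948617 (Ccl11). Capitals mark matches to the searched motifs.
Ccl2: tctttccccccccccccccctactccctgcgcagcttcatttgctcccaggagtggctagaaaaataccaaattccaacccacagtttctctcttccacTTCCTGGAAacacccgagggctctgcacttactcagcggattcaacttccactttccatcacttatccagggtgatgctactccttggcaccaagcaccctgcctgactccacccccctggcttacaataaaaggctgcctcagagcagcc
Ccl7: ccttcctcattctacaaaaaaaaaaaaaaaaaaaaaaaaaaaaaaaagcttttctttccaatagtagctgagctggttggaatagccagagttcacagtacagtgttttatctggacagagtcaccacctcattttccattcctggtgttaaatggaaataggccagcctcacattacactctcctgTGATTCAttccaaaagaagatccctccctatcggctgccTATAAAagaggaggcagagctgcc
Ccl12: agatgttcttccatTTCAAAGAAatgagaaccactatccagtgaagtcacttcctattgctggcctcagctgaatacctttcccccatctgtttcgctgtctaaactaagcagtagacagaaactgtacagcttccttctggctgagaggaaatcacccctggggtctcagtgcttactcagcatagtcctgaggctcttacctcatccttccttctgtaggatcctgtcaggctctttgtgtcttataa
Ccl11: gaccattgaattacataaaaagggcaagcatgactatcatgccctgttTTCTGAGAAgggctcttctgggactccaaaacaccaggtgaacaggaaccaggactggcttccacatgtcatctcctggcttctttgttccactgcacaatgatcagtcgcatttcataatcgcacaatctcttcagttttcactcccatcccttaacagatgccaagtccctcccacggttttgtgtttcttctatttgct
The searched motifs, on both strands, were the STAT motif TTCNNNGAA, the wider STAT6 motif TTCNNNNGAA, the AP-1 motif TGANTCA, the TATA box TATAAA, the GC box GGGCGG and the NF-kappaB motif. The STAT motif occurred before Ccl2 (TTCCTGGAA, starting 151 bases upstream), Ccl11 (TTCTGAGAA, 202 bases) and Ccl12 (TTCAAAGAA, 236 bases), which is 3 of the 9 genes, against 7.7% of 21770 protein-coding promoters of the same length. The Ccl7 window held an AP-1 match (TGATTCA, 63 bases upstream) and a TATA box (24 bases upstream), motifs found in 6.17% and 11.9% of promoters. Ccl8 also held a TATA box, 28 bases upstream, and Ccr1 an NF-kappaB match, a motif found in 7.62% of promoters. None of the 9 windows held the STAT6 motif (5.89% of promoters) or the GC box (36.3%), which says only that these letters are absent from these windows. A STAT match was thus printed for 2 genes that were higher in tumours and for the neighbour that was not called.

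Total counts ran from 20608682 to 32765364 per library. Levels are given as CPM, the usual share of the library total after TMM scaling, a correction for composition. Genes count as called where the edgeR quasi-likelihood test gave an adjusted p below 0.05, with Benjamini-Hochberg adjustment over all 22190 genes. The error beside a log2 fold change is an approximate standard error, worked back from the fold change and its test statistic. The labels number the 3 libraries of a group as replicates without naming animals, so p-values measure the spread between these samples. One normal library stood apart from the other normal ones: the summed CPM of 4 proliferation genes was 129 in normal VEH replicate 2 and 22.9 to 35.4 in the other 5 normal libraries, against 428 to 877 in tumours. Among tumours, VEH replicate 2 held the most airway epithelium RNA, a sum of 19284 CPM over 4 markers, and HDM replicate 3 the least, at 3.52. Library names carry a prefix that joins 1 normal to 1 tumour library, and for 2 of the 6 prefixes the joined libraries have different treatment labels. The labels were used as given. The chosen chemokine and receptor genes (the members) and counts over all tested genes were also fitted without these libraries. Tests of the other genes and of the gene lists used every library and were not repeated without them.

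Ccl2, Ccl7 and Ccl12, the main CCR2 ligands, were the members with the highest fold changes in tumours under HDM, and Ccl12 also rose under VEH. Ccl2, the chemokine that names the monocyte chemoattractant group, measured 3.94, 53.4 and 3.70 CPM in normal VEH (here and below in the order of replicates 1, 2 and 3) against 233, 79.4 and 116 CPM in tumour VEH. Under HDM it measured 14.99, 0.604 and 7.92 CPM in normal lung and 122, 169 and 102 CPM in tumours. Every tumour library was above every normal library, and normal VEH replicate 2 came closest to the tumours. The log2 fold change in tumour over normal was 4.07 ± 1.22 under HDM (adjusted p 0.0179) and 2.81 ± 1.15 under VEH (adjusted p 0.0755, not called). Without normal VEH replicate 2 the VEH value was 5.23 (adjusted p 0.00721), without normal HDM replicate 2 it was 2.81 (adjusted p 0.0498), and without normal HDM replicate 3 the HDM value was 4.16 (adjusted p 0.0529).

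Ccl7, a second CCR2 ligand that also binds CCR1, had the same arrangement. It measured 1.97, 24.2 and 1.68 CPM in normal VEH and 72.1, 26.5 and 56.2 CPM in tumour VEH. It measured 6.59, 1.28 and 5.01 CPM in normal HDM and 69.6, 77.3 and 47.2 CPM in tumour HDM. The groups did not overlap under either treatment, although the highest normal VEH and the lowest tumour VEH library were close. Ccl7 was called under HDM, by 3.91 ± 1.02 on the log2 scale (adjusted p 0.00935), and kept that call in each of the 12 fits that left out 1 library, with a highest adjusted p of 0.0342. Under VEH the change was 2.47 ± 0.96 (adjusted p 0.0632, not called), and 4.82 (adjusted p 0.00126) without normal VEH replicate 2.

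Ccl12, a rodent CCR2 ligand next to Ccl8 in the cluster, was the only member called under both treatments in the reported fit. It measured 0.246, 4.97 and 0.589 CPM in normal VEH against 28.1, 9.15 and 21.9 CPM in tumour VEH. It measured 2.54, 0.831 and 1.44 CPM in normal HDM against 9.73, 9.70 and 21.0 CPM in tumour HDM. All 6 tumour libraries exceeded all 6 normal libraries. Tumours were higher by 3.33 ± 0.96 on the log2 scale under VEH (adjusted p 0.0210) and by 3.07 ± 0.96 under HDM (adjusted p 0.0210). The VEH call was lost without normal VEH replicate 3 (adjusted p 0.0674) or tumour VEH replicate 1 (0.0567), and the HDM call without normal HDM replicate 2 (0.0742), normal HDM replicate 3 (0.0592) or tumour HDM replicate 3 (0.0521). The log2 fold change without these libraries stayed between 2.73 and 3.08, and without normal VEH replicate 2 the VEH value was 5.55. With the library-name prefix as a block Ccl12 was called under VEH and not under HDM (adjusted p 0.0568), and Ccl7 and Ccr1 were the members called under both.

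Ccl8, the fourth chemokine of this kind, which in mice acts through CCR8 as well, was less sharply divided. It measured 4.27, 10.5 and 1.09 CPM in normal VEH and 18.9, 16.0 and 17.6 CPM in tumour VEH. It measured 11.6, 5.21 and 1.77 CPM in normal HDM and 9.45, 16.9 and 19.99 CPM in tumour HDM. The VEH groups did not overlap, and the HDM groups did, since tumour HDM replicate 1 lay below normal HDM replicate 1. Neither difference was called: 1.72 ± 0.76 under VEH (adjusted p 0.0941) and 1.32 ± 0.75 under HDM (adjusted p 0.162). Without normal VEH replicate 2 the VEH difference was 2.70 (adjusted p 0.0239).

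**Figure D1:**
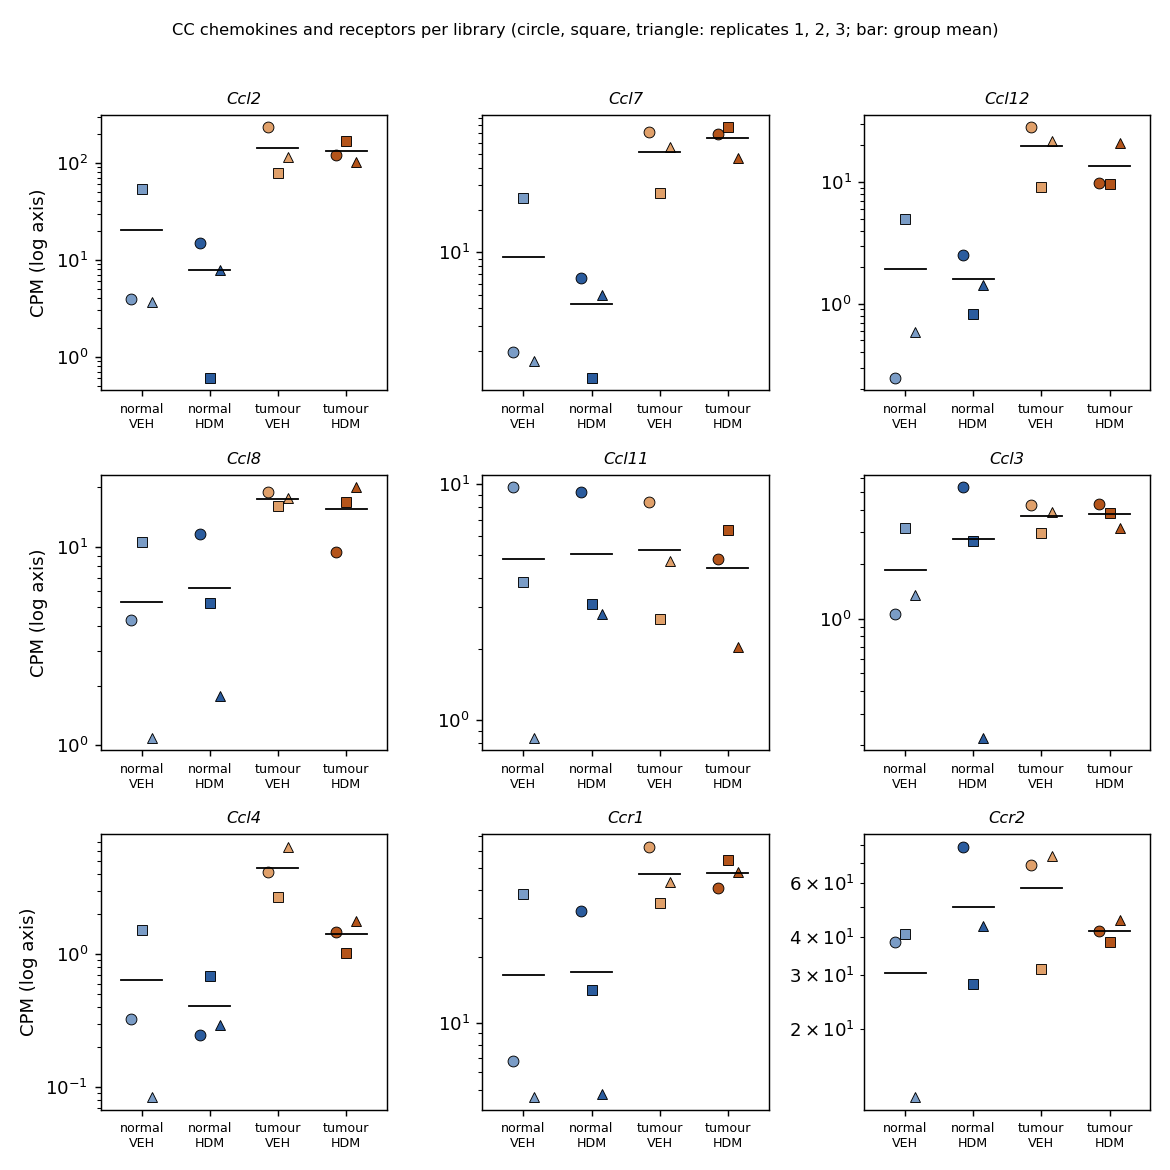
CPM of the 9 genes per library on log axes, with circles, squares and triangles for replicates 1, 2 and 3 and bars for group means. All 6 tumour libraries lie above all 6 normal libraries for Ccl2, Ccl7 and Ccl12, whereas the groups overlap for Ccl11, Ccl3 and Ccr2.

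Ccl11 did not follow its neighbours. It measured 9.69, 3.84 and 0.842 CPM in normal VEH and 8.37, 2.68 and 4.71 CPM in tumour VEH. It measured 9.22, 3.10 and 2.80 CPM in normal HDM and 4.80, 6.35 and 2.03 CPM in tumour HDM. The groups overlapped under both treatments. The tumour-normal difference was 0.13 ± 0.80 on the log2 scale under VEH (95% interval -1.64 to 1.90) and -0.20 ± 0.80 under HDM (-1.97 to 1.58), so neither interval leaves out a change of a log2 unit in either direction. Ccr3, the eosinophil receptor for CCL11, did not pass the filter, with at most 0.164 CPM in any library, and Epx, an eosinophil granule gene, was at 0 in all of them. The 5 markers listed for eosinophils, Epx included, summed to 0.0842 to 10.4 CPM in normal libraries and 0.0850 to 0.372 CPM in tumours. Ear6 and Prg2, eosinophil granule genes in that sum, had 0 to 194 and 0 to 103 counts in normal libraries, and neither was called by edgeR in tumour against normal. Ear6 measured 6.10, 4.997 and 5.97 CPM in normal VEH replicate 2 and normal HDM replicates 1 and 2. It was at 0 in the other normal libraries. Ear2, listed below with the alveolar macrophage markers, was highest in the same normal libraries, at 136, 131 and 96.5 CPM. The eosinophil sum therefore need not follow eosinophils alone.

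Of the Ccl3 and Ccl4 pair, whose products draw monocytes, macrophages and T cells, Ccl4 was higher in tumours and Ccl3 was not called. Ccl4 measured 0.329, 1.51 and 0.0842 CPM in normal VEH and 4.16, 2.68 and 6.41 CPM in tumour VEH. Under HDM it measured 0.246, 0.680 and 0.295 CPM in normal lung and 1.48, 1.02 and 1.76 CPM in tumours. Each tumour library was above the normal libraries of its treatment, but the normal values rest on only 2 to 48 counts. Ccl4 was called under VEH (log2 2.75 ± 0.82, adjusted p 0.0233) and not under HDM (1.79 ± 0.82, adjusted p 0.0895). The VEH call was lost without normal VEH replicate 1 (adjusted p 0.0791) or tumour VEH replicate 3 (0.0716), and the HDM difference was called without normal VEH replicate 2 (adjusted p 0.0284) or normal VEH replicate 3 (0.0444). Without normal VEH replicate 2 the VEH difference was 4.39.

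Ccl3, its neighbour on the opposite strand, measured 1.07, 3.18 and 1.35 CPM in normal VEH and 4.25, 2.97 and 3.88 CPM in tumour VEH. It measured 5.32, 2.68 and 0.221 CPM in normal HDM and 4.31, 3.83 and 3.18 CPM in tumour HDM. The tissues overlapped under both treatments, and the 6 tumours were much closer to each other than the 6 normal libraries. The differences were 0.98 ± 0.79 under VEH (adjusted p 0.332) and 0.46 ± 0.78 under HDM (adjusted p 0.641).

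Neither receptor among the members was called in a comparison in the reported fit. Ccr1, found on monocytes, macrophages and neutrophils, measured 6.78, 38.4 and 4.63 CPM in normal VEH and 62.7, 34.9 and 43.3 CPM in tumour VEH. It measured 32.1, 14.2 and 4.79 CPM in normal HDM and 40.7, 54.9 and 48.0 CPM in tumour HDM. The HDM groups did not overlap, and under VEH normal replicate 2 exceeded tumour replicate 2. Ccr1 was not called under VEH (1.50 ± 0.79, adjusted p 0.152) or HDM (1.49 ± 0.79, adjusted p 0.138). Without normal VEH replicate 2 it was called under VEH, at 3.04 (adjusted p 0.00830), and under HDM, at 1.49 (adjusted p 0.0456).

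Ccr2, the monocyte receptor itself, measured 38.4, 41.0 and 12.0 CPM in normal VEH and 68.7, 31.5 and 73.4 CPM in tumour VEH. It measured 79.0, 28.1 and 43.4 CPM in normal HDM and 41.8, 38.5 and 45.6 CPM in tumour HDM. The tissues overlapped under both treatments, and the highest value of all was in a normal library. The differences were 0.92 ± 0.50 under VEH (95% interval -0.17 to 2.02, adjusted p 0.156) and -0.26 ± 0.49 under HDM (-1.34 to 0.83, adjusted p 0.683). No fit tried moved Ccr2 past the threshold. Per length, the ratio of Ccr2 to Ccr1 overlapped between the tissues, at 0.448 to 3.80 in normal lung and 0.294 to 0.710 in tumours.

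Across the set, 2 of 9 members (Ccl4 and Ccl12) were called higher in tumours under VEH, where 18.2% of all tested genes were called higher and 38.9% called in either direction. Under HDM 3 of 9 (Ccl2, Ccl7 and Ccl12) were called higher, where 23% of tested genes were called higher and 51.9% in either direction. No member was called lower. These shares are near the background of genes called higher. All 9 fitted changes were above 0 under VEH, with a median of 1.72 on the log2 scale against -0.11 over all tested genes. Under HDM 7 of 9 were above 0, with a median of 1.49 against -0.08. The libraries did not overlap, with tumours higher, for 5 of 9 members under VEH (23.9% of tested genes) and 5 of 9 under HDM (29.6%). The VEH count moved with the libraries and the test. Without normal VEH replicate 2, 6 of 9 members (Ccl2, Ccl4, Ccl7, Ccl8, Ccl12 and Ccr1) were called higher, where 4248 of 23126 tested genes were. It was 5 by DESeq2, where 4539 of 22190 tested genes were called higher, and 5 with the prefix block, where 3061 of 22190 were. It was 1 without normal VEH replicate 1 (2944 of 23083 called higher) or 3 (2872 of 23110). It was also 1 without tumour VEH replicate 1 (3282 of 23204) or 3 (3470 of 23174). It was 0 with only the groups compared (3245 of 20208). Under HDM the count was 1 (Ccl7) without normal HDM replicate 3 where 5328 of 22993 tested genes were called higher, and 5 (Ccl2, Ccl4, Ccl7, Ccl12 and Ccr1) without normal VEH replicate 2, where 5217 of 23126 were. Without the 4 libraries of conflicting prefixes the counts were 6 under VEH, the same genes as without normal VEH replicate 2, and 2 under HDM (Ccl7 and Ccl12), where 3534 and 4476 of 22414 tested genes were called higher.

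**Figure D2:**
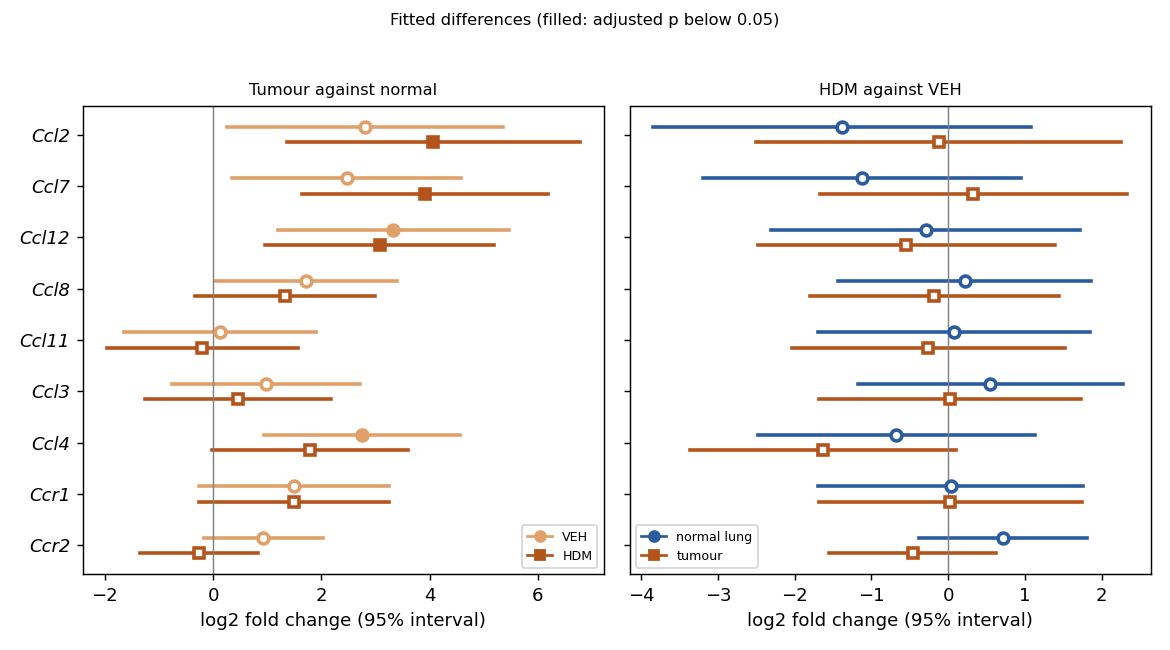
Fitted log2 fold changes of the 9 genes with 95% intervals, tumour against normal on the left and HDM against VEH on the right, with filled symbols where the adjusted p is below 0.05. Filled symbols are Ccl12 under both treatments, Ccl2 and Ccl7 under HDM and Ccl4 under VEH, and none appear on the right.

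**Figure D3:**
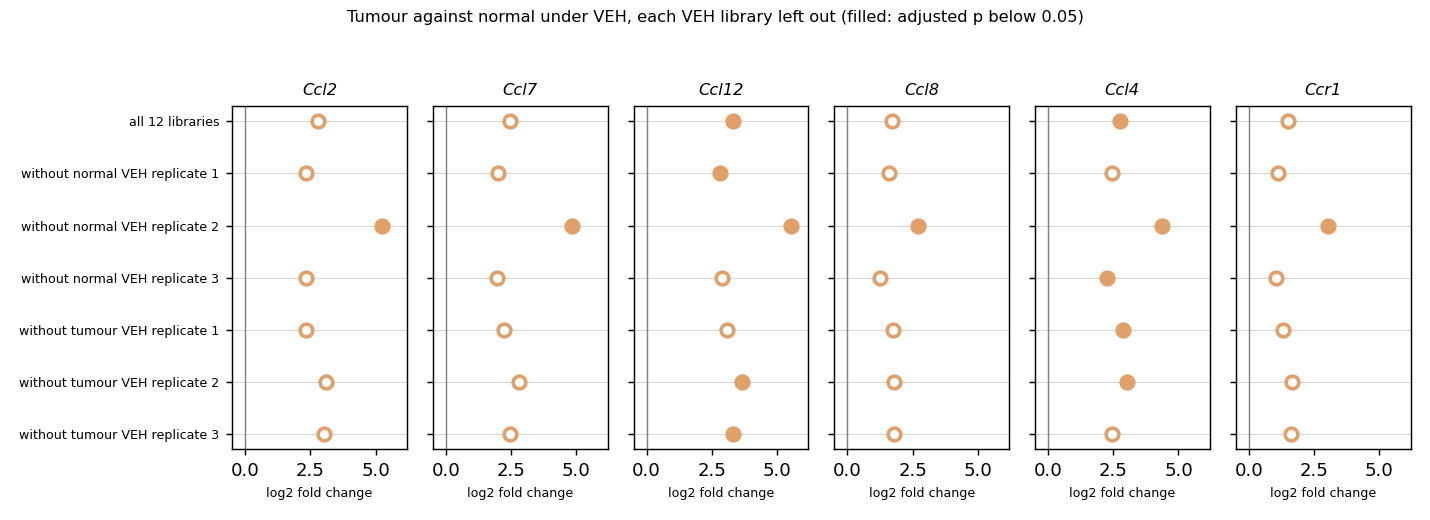
Log2 fold change of tumour against normal under VEH for 6 genes when each VEH library is left out in turn, with filled circles where the adjusted p is below 0.05. All 6 are filled without normal VEH replicate 2, where Ccl2 reaches 5.23 and Ccl7 4.82.

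No member passed the test for HDM against VEH in either tissue. In normal lung 0 of 9 members were called and 0 had an unadjusted p below 0.05 in the edgeR test. That test called 0% of all tested genes, and 5.54% had an unadjusted p below 0.05. DESeq2 also called 0 members, where it called 43 of 22190 tested genes. The difference was -1.38 ± 1.11 for Ccl2 and -1.12 ± 0.94 for Ccl7, and 0.72 ± 0.49 for Ccr2. The signs for Ccl2 and Ccl7 rest on normal VEH replicate 2: without it the values were 1.03 and 1.23. The 95% intervals were wide, from -3.84 to 1.08 for Ccl2, so a sizeable change in normal lung was not detectable with these libraries.

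In tumours edgeR called 0.0946% of tested genes (16.7% at an unadjusted p below 0.05), and 0 of 9 members were called or had an unadjusted p below 0.05. DESeq2 called 0 members as well, where it called 1311 of 22190 tested genes. Ccl4 was the one member whose tumour groups did not overlap, with 4.16, 2.68 and 6.41 CPM under VEH above 1.48, 1.02 and 1.76 CPM under HDM, among 10.7% of tested genes with that arrangement. Its difference was -1.63 ± 0.79 (adjusted p 0.323), the largest in size of the 9. Ccl2 differed by -0.12 ± 1.07 and Ccl7 by 0.33 ± 0.90. The summed CPM of 6 T and NK cell markers was 35.7 to 57.3 in tumour VEH and 1.97 to 13.6 in tumour HDM, so it moved with Ccl4, and its part in the Ccl4 values was not tested. The interaction asks whether the tumour-normal difference depends on treatment. It was called for 0 of 9 members by edgeR (0% of tested genes, 9.39% at an unadjusted p below 0.05). DESeq2 also called it for 0 members (222 of 22190 tested genes), and 0 members had an unadjusted p below 0.05 in the edgeR test. It was 1.26 ± 1.54 for Ccl2, 1.44 ± 1.30 for Ccl7 and -1.18 ± 0.70 for Ccr2, so the calls of Ccl2 and Ccl7 under HDM alone do not show that their tumour-normal difference depended on treatment.

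Dividing CPM by gene length allowed the members to be ordered within a group. In tumours Ccl2 had the highest mean level (126 CPM per kilobase under VEH and 115 under HDM) and Ccl7 the next (64.4 and 80.7), and the ranges of this pair overlapped over libraries. Ccl12 and Ccl8 followed, at 36.7 and 34.2 under VEH and 25.1 and 30.2 under HDM, and they overlapped with each other. Ccr1 came next in both tumour groups (16.6 and 16.9) and stood clear of the next member, Ccr2 (8.56 and 6.21). The lowest mean was 4.83, for Ccl3, under VEH and 2.15, for Ccl4, under HDM. In normal lung the order was not resolved: each neighbour in the order overlapped with the next in the VEH group, and in the HDM group all did except Ccl12 (2.98) and Ccl4 (0.616). The highest mean was 17.9 for Ccl2 in normal VEH, carried by replicate 2, and 12.1 for Ccl8 in normal HDM.

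Replicates varied more in normal lung than in tumours for all 9 members. The SD of log2 CPM was larger in normal VEH than in tumour VEH for 9 of 9 members, against 52% of tested genes. It was larger in normal HDM than in tumour HDM for 9 of 9, against 54%. Low counts can widen this SD, and those shares are over genes of all levels. Normal libraries held 2 to 48 counts of Ccl4 and 6 to 158 of Ccl12, but 110 to 1219 of Ccr1 and 284 to 1928 of Ccr2. The part of low counts was not tested. Ccl2 spanned 14.4 times from lowest to highest in normal VEH and 24.8 times in normal HDM, but 2.93 times in tumour VEH. Normal VEH replicate 2 was the highest normal library for 5 members (Ccl2, Ccl4, Ccl7, Ccl12 and Ccr1), and normal VEH replicate 3 was the lowest for 5 (Ccl4, Ccl8, Ccl11, Ccr1 and Ccr2). Among tumours, VEH replicate 2, the one with the most airway epithelium RNA, was the lowest for 6 members (Ccl2, Ccl3, Ccl7, Ccl12, Ccr1 and Ccr2). Ccl2 and Ccl7 kept a narrow ratio per length, 1.11 to 1.60 in 5 normal libraries and 1.24 to 2.27 in the 6 tumours. The exception was normal HDM replicate 2, at 0.331, where Ccl2 rested on 16 counts.

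The genes most like each member were found by Pearson correlation of log2 CPM over the 12 libraries after removing the mean of each tissue, a description in which all genes share library and depth. For Ccl7 they were Thbs2, a matrix protein, at r = 0.97 (Spearman 0.90) and Hoxa11os and Spp1 (osteopontin, made by macrophages and tumour cells) at 0.96 and 0.94. For Ccl2 they were Hmga2 (0.95), Rhox2d (0.93) and Ptpn2 (0.93), and within the 6 tumours alone these values were 0.69, 0.10 and 0.59. For Ccr1 they were Fcgr3, a macrophage Fc receptor, at 0.98, Agpat2 (0.97) and Ppp1r18 (0.97). For Ccr2 they were Pik3cd, a white cell kinase, at 0.96, Cd180 (0.95) and Map4k1 (0.95). Without normal VEH replicate 2 the Ccl7 and Thbs2 value was 0.94, the Ccr1 and Fcgr3 value 0.98 and the Ccr2 and Pik3cd value 0.97.

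Other CC chemokines were mostly lower or not called in tumours. Of 14 other ligands, 13 were tested. Under VEH Ccl1 and Ccl20 were called higher and Ccl27a lower in tumours, where 18.2% of tested genes were called higher and 20.6% lower. Under HDM 7 were called lower (Ccl5, Ccl17, Ccl19, Ccl20, Ccl21a, Ccl22 and Ccl27a), most of them known for guiding lymphocytes and dendritic cells, and 0 were called higher by edgeR (8 of 13 had an unadjusted p below 0.05 in either direction, and DESeq2 called 1 higher). In the same comparison 28.9% of all tested genes were called lower. Ccl17, a CCR4 ligand, measured 5.20, 8.004 and 6.48 CPM in normal HDM and 0.657, 0.546 and 0 CPM in tumour HDM (log2 -4.04 ± 0.86, adjusted p 0.00311). Ccl9, another CCR1 ligand, measured 47.4, 31.3 and 9.87 CPM in normal HDM and 89.7, 181 and 108 CPM in tumour HDM (2.10 ± 0.85, adjusted p 0.0600, not called).

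Of 7 other receptors, 6 were tested. Under VEH edgeR called 0 of them (1 with an unadjusted p below 0.05) and DESeq2 called 1 higher. Under HDM edgeR called Ccr4 and Ccr7, receptors of T and dendritic cells, lower in tumours. The atypical receptors bind chemokines without the usual signal and remove them. Ackr2, which scavenges inflammatory CC chemokines including CCL2, measured 41.6, 18.4 and 32.5 CPM in normal VEH and 3.61, 5.88 and 6.27 CPM in tumour VEH. It measured 51.8, 32.1 and 40.4 CPM in normal HDM and 3.70, 0.956 and 0.0607 CPM in tumour HDM. Every tumour value was below every normal value, by -2.55 ± 0.84 on the log2 scale under VEH (adjusted p 0.0360) and -4.74 ± 0.94 under HDM (adjusted p 0.00234). All 4 atypical and related receptors (Ackr1, Ackr2, Ackr4 and Ccrl2) were called lower under VEH, where 20.6% of tested genes were. Under HDM 3 of 4 (all but Ackr1) were called lower, where 28.9% of tested genes were. Endothelial and epithelial markers moved with them: 4 endothelial markers summed to 1237 to 2536 CPM in normal libraries and 76.6 to 445 in tumours, and their part in the fall of these receptors was not tested.

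Genes that supply or accompany monocytes were followed as a list of 14. Under VEH 6 were called higher in tumours (Csf1, Csf1r, Il34, Cx3cr1, Tnf and Nfkb1) and 2 lower (Csf2 and Nfkbia). Under HDM 2 were called higher (Csf1 and Il34) and 2 lower (Csf2 and Cx3cl1). Over all tested genes 18.2% were called higher and 20.6% lower under VEH, and 23% higher and 28.9% lower under HDM. The HDM counts of this list do not exceed those shares. Csf1, the growth factor of macrophages, measured 36.6, 82.0 and 55.4 CPM in normal VEH and 324, 174 and 204 CPM in tumour VEH (log2 2.01 ± 0.29, adjusted p 0.000838). Under HDM its difference was 1.60 ± 0.29 (adjusted p 0.00121), and Il34, the other CSF1R ligand, differed by 1.33 ± 0.25 and 1.18 ± 0.25 under VEH and HDM (adjusted p 0.00264 and 0.00276). Both ligands of CSF1R were therefore higher in tumours of either treatment.

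Markers of the cells that carry CCR1 and CCR2 gave a mixed picture. Of 10 macrophage markers 6 were called higher in tumours under VEH with 0 lower, and 5 higher with 1 lower under HDM, among them C1qa at 2.48 ± 0.38 and 1.86 ± 0.38 (adjusted p 0.00118 and 0.00244). Of 6 monocyte markers, a list that includes Ccr2 itself, 0 were called by edgeR under VEH and 3 were called lower under HDM. Under VEH 1 had an unadjusted p below 0.05 in the edgeR test, and 1 was called lower by DESeq2. Over all tested genes edgeR called 18.2% higher and 20.6% lower under VEH, and 23% higher and 28.9% lower under HDM. The monocyte gene Ly6c2 measured 2.79, 27.6 and 6.23 CPM in normal VEH and 30.8, 9.11 and 21.0 CPM in tumour VEH, and 47.2, 26.3 and 4.90 CPM in normal HDM and 10.8, 11.3 and 1.76 CPM in tumour HDM. It was not called under VEH (0.73 ± 0.99, adjusted p 0.573) or HDM (-1.72 ± 1.01, adjusted p 0.177), and the tissues overlapped.

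Other cells in normal lung moved with Ccr1. The macrophage gene Chil3 measured 7313 CPM in normal VEH replicate 2, 7705 in normal HDM replicate 1 and 5271 in normal HDM replicate 2, and 75.3 to 203 in the other 3 normal libraries. The same libraries held the 3 highest normal Ccr1 values, 38.4, 32.1 and 14.2 CPM. Neutrophil markers (6 genes) summed to 799 CPM in normal VEH replicate 2 and 558 in normal HDM replicate 1, against 18.6 to 79.4 in the other 4 normal libraries and 11.1 to 65.3 in tumours. Alveolar macrophage markers (6 genes) summed to 152 to 287 CPM in normal libraries and 6.37 to 48.6 in tumours. Car4, 1 of these 6, weighed heavily in the sum, at 65.0 to 151 CPM in normal libraries and 0.425 to 27.7 in tumours. Its lowest normal value was in normal VEH replicate 2, where the endothelial markers also had their lowest normal sum, at 1237 CPM. The sum of the 6 genes therefore need not follow alveolar macrophages alone. Ear2, Siglecf and Pparg were each highest in the 3 normal libraries with the most Chil3, whereas Car4, Marco and Fabp1 were not. Fibroblast markers (6 genes, fibroblasts being a known source of CCL2 and CCL7) summed to 555 to 1795 CPM in normal libraries and 2601 to 4176 in tumours, which do not overlap. Of these 6, only Dcn and Lum were called higher in tumours, under both treatments, and Col1a2 was called lower under both and Pdgfrb under HDM. Dcn, the most abundant in tumours, measured 145 to 920 CPM in normal libraries and 1444 to 3275 in tumours. The part of these cells in the chemokine and receptor differences was not tested.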

How the data were processed

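Paired-end libraries were prepared with strand marking by dUTP, per the labels' protocols, which name both poly(A) selection and removal of ribosomal RNA without saying which was used. The values the authors deposited are unnormalized counts for each Ensembl identifier and library, beside a gene length. The submitters' processing notes name Trim Galore, STAR, featureCounts, Subread and the mouse build mm39, with versions and the strand setting not given in the sources used here. Among counts of 1 to 100, from 66% to 69.9% per library were even, as were 83 of the 108 counts of the 9 genes, so a count need not be 1 fragment. Replicate libraries differed by more than counting noise (chi-square per degree of freedom from 29.1 to 278), and each was kept as a sample.

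Symbols and coordinates came from GENCODE mouse release 39 (78168 of 78298 identifiers found, and the other 130 held 0.143% of counts). The deposited length equalled the GENCODE exon length for 1 of the 9 genes, so levels per kilobase use the deposited one. Counts were fitted in R 4.3.3 with edgeR 4.0.16 (filterByExpr with a minimum count of 10, TMM, robust quasi-likelihood, a coefficient per group over all 12 libraries), with 5 comparisons: tumour against normal under VEH and under HDM, HDM against VEH in normal lung and in tumours, and the interaction. P-values are two-sided. Intervals are 95% intervals built from the approximate standard errors of the log2 fold changes. The procedure was tested on simulated data. The alternatives were DESeq2 1.42.0 size factors and Wald test, scaling by library size, no filter, at least 10 counts in every library, only the groups compared, blocks for replicate number or library-name prefix, removal of the 4 libraries of conflicting prefixes, leaving out each library and, chosen after seeing the data, leaving out normal VEH and tumour VEH replicates 2 together.

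The 9 members and all gene lists were chosen with earlier results of these data known, so list counts are descriptions. All members may be named, other CC chemokine genes where called or where they share a receptor or ligand with a member, monocyte-supply genes with their counts, and the 3 genes most like each member among genes with an average log2 CPM of at least 1. Marker genes of other cell types were named after their values were seen. Some results are not reported here.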

Additional observations from a re-analysis of the deposited data

Results flagged for a closer look

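For 4 other CC chemokine genes, all tumour libraries lay above all normal libraries under VEH and below them under HDM. Taken singly these arrangements were common, the first in 23.9% of tested genes and the second in 7439 of 22190. The number of tested genes with both is not given here, so the pattern cannot be called particular to these 4. Ccl5 measured 4.19 to 9.63 CPM in normal VEH and 12.3 to 14.7 CPM in tumour VEH, but 5.81 to 7.86 CPM in normal HDM and 1.58 to 4.27 CPM in tumour HDM, a log2 interaction of -2.23 (adjusted p 0.417, edgeR). Ccr7 measured 4.44 to 7.36 CPM and 8.03 to 14.0 CPM under VEH, and 5.74 to 9.99 CPM and 1.46 to 3.41 CPM under HDM, with an interaction of -2.47 (adjusted p 0.410). Ccr4, at no more than 1.43 CPM in any library, had an interaction of -5.31 (adjusted p 0.457). Ccl20 had a fitted interaction of -10.81 (adjusted p 0.367), which is no bound, since tumour HDM libraries held 2, 0 and 0 of its counts. None of the 4 interactions passed the threshold in the edgeR test. DESeq2 called all 4, among 222 genes: Ccl5 at -2.27 (adjusted p 0.0187), Ccl20 at -11.07 (0.000138), Ccr4 at -5.48 (0.0310) and Ccr7 at -2.51 (0.00413). The summed CPM of 6 T and NK cell markers moved with these genes, at 11.1 to 26.3 in normal libraries, 35.7 to 57.3 in tumour VEH and 1.97 to 13.6 in tumour HDM, with interactions at an unadjusted p below 0.05 for 5 of the 6 and a median of -2.53, and their part was not tested.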

How the results depend on the processing

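Member counts for tumour against normal under VEH, 2 in the reported fit, were 1 with no filter and 1 with the replicate block (Ccl4). The count was 0 with at least 10 counts in every library, which removes Ccl3, Ccl4 and Ccl12 and leaves 6 members tested. With only the groups compared it was also 0, and it was 5 by DESeq2 and with the prefix block. Member counts were 6 without the 4 libraries of conflicting prefixes, 6 without both replicates 2, and 1 to 6 when 1 library was left out. Under HDM, 3 in the reported fit, they were 1 with no filter and 1 to 5 when 1 library was left out, and the prefix block called Ccl7 and Ccr1 (adjusted p 0.0285) but not Ccl2 (0.0935) or Ccl12 (0.0568). Over all tested genes, those called higher under VEH were 3530 of 40856 with no filter and 3712 of 22190 with the replicate block. They were 3336 of 15292 with at least 10 counts in every library and 4589 of 22965 without both replicates 2. Under HDM they were 4459 of 40856 with no filter and 3804 of 22190 with the prefix block. For HDM against VEH and the interaction the member counts stayed 0. Counts over all genes were 5603 under VEH without the conflicting prefixes (5733 to 9070 when 1 library was left out). For HDM against VEH in tumours, 21 in the reported fit, they were 8 with library size only, 52 with no filter, 53 with at least 10 counts, 1311 by DESeq2, 1 with the replicate block or without both replicates 2, and 0 with only the groups compared, with the prefix block or without the conflicting prefixes (0 to 24 leaving out 1 library). DESeq2 called 43 genes in normal lung and 222 in the interaction (0 to 6 leaving out 1 library in edgeR). Scaling by library size moved the median log2 change of all genes from -0.11 to 0.03 under VEH and from -0.08 to 0.10 under HDM. The cause of these shifts was not tested, except where fewer genes were tested.

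Signs turned only for differences that were not called. In HDM against VEH in normal lung, without the conflicting prefixes Ccl2 was 1.06, Ccl4 1.14, Ccl7 1.13 and Ccl12 2.02. Without both replicates 2, Ccl2 was 1.03, Ccl4 0.96, Ccl7 1.23, Ccl11 -0.0641 and Ccl12 1.93. With the prefix block Ccl3 was -0.998, Ccl8 -0.24 and Ccr1 -0.33. In tumours Ccr1 was -0.0011 with DESeq2 size factors, -0.0114 with no filter, -0.0039 with at least 10 counts, -0.0012 by DESeq2, -2.34 with the prefix block, -0.14 without the conflicting prefixes and -0.15 without both replicates 2. Ccl3 was -0.0118 with no filter, -0.0253 with the replicate block, -2.60 with the prefix block and -0.11 without both replicates 2, and Ccl7 was -1.15 with the prefix block. For tumour against normal under HDM, Ccl3 was -0.0004 without the conflicting prefixes. In the interaction Ccr1 was 0.0848 with library size only, and Ccl2 and Ccl7 were -0.59 and -0.44 with the prefix block, -1.53 and -0.88 without the conflicting prefixes and -1.45 and -1.22 without both replicates 2.
Leaving out 1 library gave these ranges where a sign turned. For tumour against normal under VEH they were Ccl11 -0.36 to 1.16. Under HDM they were Ccl11 -0.46 to 0.57 and Ccr2 -0.54 to 0.23. For HDM against VEH in normal lung they were Ccr1 -0.81 to 1.58, Ccl2 -2.26 to 1.03, Ccl4 -1.26 to 0.96, Ccl7 -1.61 to 1.23, Ccl11 -0.70 to 1.09, Ccl12 -0.81 to 1.93, Ccl8 -0.605 to 1.203 and Ccl3 -0.37 to 1.18. In tumours they were Ccl2 -0.41 to 0.43, Ccl11 -0.61 to 0.26, Ccl3 -0.11 to 0.17, Ccr1 -0.15 to 0.29 and Ccl8 -0.38 to 0.0698. In the interaction they were Ccl12 -2.48 to 0.26, Ccr1 -1.55 to 0.84, Ccl2 -1.16 to 2.14, Ccl7 -0.91 to 1.94, Ccl8 -1.38 to 0.43, Ccl11 -1.35 to 0.44 and Ccl3 -1.15 to 0.39.

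Same-numbered libraries deviated together at r from -0.36 to 0.31 (18 pairs), and 4 of 12 matched best with their own number. Libraries of the same prefix did so at r from -0.22 to 0.18 (6 pairs), and 1 of 12 matched best with its own prefix. Both were weak, so this check cannot tell whether numbers or prefixes pair the samples. With the replicate block Ccl12 under VEH was 3.43 and no longer called (edgeR adjusted p 0.0531). The block moved calls over all genes to 7830 under VEH and 11001 under HDM.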
